A study of Homo sapiens with 6 samples.

Results

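Nuclear receptors are transcription factors, and the activity of many of them is set by small lipophilic ligands. Described here are 27 genes of the family, without the glucocorticoid, mineralocorticoid and clock receptors, and 8 main coregulators. The 35 genes were chosen by name among the 37202 genes of the table, and 34 of them had values here. The expression of NR5A2 is not analysed here. Total RNA was sequenced in read pairs from strand-specific libraries (Illumina) of HK2 cells, an immortalized human line derived from kidney proximal tubule epithelium. The Control group (3 libraries, genotype given as normal) was compared with the NR3C2-OE group (3 libraries), whose cells had received a plasmid for overexpression of NR3C2, the mineralocorticoid receptor, by lipid transfection. All cells were grown in DMEM/F12 with fetal bovine serum and antibiotics. Whether Control cells had an empty plasmid, when RNA was taken, whether a ligand was added and whether libraries 1 to 3 were separate cultures is not stated. A p-value therefore refers to the scatter among 3 libraries a group, which could be technical.

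Receptors of this family bind DNA through a conserved zinc finger domain. Many of them, though not the orphan receptors as a class, exchange corepressors for coactivators when ligand fills the pocket of the ligand-binding domain. Thyroid hormone, retinoic acid, vitamin D, PPAR and LXR receptors act mainly as heterodimers with a retinoid X receptor, whereas steroid receptors such as NR3C2 act mainly as homodimers. Both classes draw on the same coregulators, such as the p160 coactivators, the acetyltransferases p300 and CBP, and the Mediator complex.

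THRB, the gene of thyroid hormone receptor beta, had the largest log2 fold change of the 34 genes. Its level was about 2-fold higher in NR3C2-OE, yet the difference missed the threshold of the test across all genes. FPKM (fragments scaled to transcript length and library size) was 4.93, 4.98 and 5.62 in Control libraries 1 to 3 and 9.88, 11.2 and 9.72 in NR3C2-OE libraries 1 to 3. Every NR3C2-OE library lay above every Control library, with a wide gap between the groups. The means were 5.18 ± 0.38 and 10.3 ± 0.79 FPKM (SD, n = 3 each), a ratio of 1.98. The estimated counts gave the same picture, with 31.1, 25.3 and 32.8 CPM (counts scaled to library size) in Control and 65.2, 67.5 and 62.4 in NR3C2-OE. The log2 fold change was 1.13 (SE 0.10, 95% interval 0.88 to 1.38) in edgeR's quasi-likelihood test, and the length implied by counts per FPKM was 5.71 kb in Control and 6.39 kb in NR3C2-OE. The Benjamini-Hochberg adjusted p was 0.0712 over 21509 genes, above the threshold of 0.05, and THRB ranked 7 by p-value, next after the 6 genes that passed. The DESeq2 Wald test called THRB (adjusted p = 1.7e-16).

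The promoters of both thyroid hormone receptor genes are shown because the values of THRB and its paralog THRA are set side by side here. Each is the 250 bases before the transcript start in RefSeq (build GRCh38.p14), on chr3:24495709-24495958, minus strand, for THRB and on chr17:40062715-40062964, plus strand, for THRA. The sequences run 5′ to 3′, and no capitals appear because none of the 3 motifs searched was found.
THRB promoter: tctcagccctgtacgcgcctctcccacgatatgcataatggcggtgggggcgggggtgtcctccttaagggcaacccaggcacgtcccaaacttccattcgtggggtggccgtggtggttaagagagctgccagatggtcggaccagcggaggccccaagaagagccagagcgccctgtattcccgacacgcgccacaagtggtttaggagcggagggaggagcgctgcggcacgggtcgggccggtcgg
THRA promoter: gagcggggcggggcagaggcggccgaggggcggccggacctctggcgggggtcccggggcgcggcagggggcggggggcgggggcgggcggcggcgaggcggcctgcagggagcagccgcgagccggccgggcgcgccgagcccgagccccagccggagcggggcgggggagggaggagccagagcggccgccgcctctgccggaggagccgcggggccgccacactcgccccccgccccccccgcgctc
Of the THRB bases 65.2% were G or C, with 21 CpG dinucleotides, against 87.2% and 39 in THRA and medians of 58% and 11 over 35116 promoters. The search covered both strands for AGGTCA, the hexamer that thyroid, retinoid and related receptors recognise, TGTTCT, the hexamer of steroid receptor elements, and the loose steroid receptor palindrome of GNACA, 3 bases of any kind and TGTNC. The palindrome was searched first, and TGTTCT, which can overlap it, was added after its result was known. AGGTCA was present in 12.1% of all 35116 windows and in 4 of the 31 windows that had a sequence, that of NR5A2 included (PPARG, RARA, NR1H3 and NR5A2). TGTTCT was present in 12.4% of all windows and in 3 of the 31 (PPARD, RXRB and ESR1). The palindrome was present in 0.327% of all windows and in 0 of the 31. GENCODE 29 lists 20 THRB transcripts with 19 distinct starts and 10 THRA transcripts with 8, and which starts these cells used was not measured.

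THRA, which encodes thyroid hormone receptor alpha, was low in both groups. Its FPKM was 1.31, 1.28 and 1.61 in Control and 1.54, 1.57 and 1.34 in NR3C2-OE, so the groups overlapped (log2 fold change 0.13, SE 0.09, edgeR adjusted p = 0.723). The 95% interval of the fold ran from 0.937 to 1.28. THRB therefore exceeded THRA by 3.75, 3.90 and 3.50 times in the Control libraries and by 6.43, 7.11 and 7.28 times in the NR3C2-OE libraries, on the FPKM scale. The log2 ratio differed by 0.90. It was formed after the values of THRB were known, and an exact permutation test of 3 libraries against 3 cannot go below p = 0.1, so it is given as a description.

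**Figure D1:**
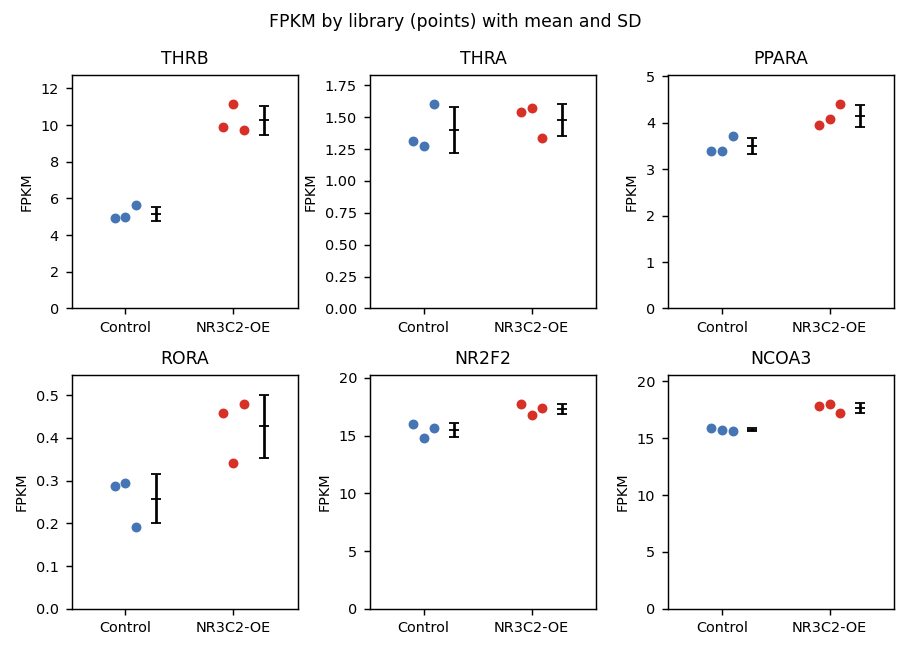
FPKM of 6 genes in each library (points, blue for Control and red for NR3C2-OE) with the mean and SD of the 3 libraries of a group (black), on axes that start at 0. THRB lies at 4.93 to 5.62 in Control and 9.72 to 11.2 in NR3C2-OE, a ratio of 1.98, against 1.66 for RORA, 1.19 for PPARA and 1.12 for NR2F2 and NCOA3, whose groups do not overlap either, while those of THRA do.

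In none of the 4 nearest protein-coding genes on each side of THRB did the groups separate in either unit. Among all genes 16.7% separated in counts and 16% in FPKM, so with so few neighbours a count of none is near that background. These neighbours were looked at after the values of THRB were known. In GENCODE 29 the clock receptor gene NR1D2 comes next to THRB on one side, and its log2 fold change was 0.01 (95% interval -0.17 to 0.19). On the other side come RARB, described with the retinoic acid receptors, and TOP2B, a DNA topoisomerase, at 0.02 (-0.07 to 0.12). UBE2E1, a ubiquitin-conjugating enzyme, stood at 0.02 (-0.11 to 0.14) and NGLY1, which removes N-glycans from misfolded proteins, at -0.0045 (-0.15 to 0.14). The ribosomal protein gene RPL15 stood at -0.23, with an interval from -0.55 to 0.08. Transcripts that overlap THRB in the annotation were scarce. The antisense gene THRB-AS1 had 18 to 49 counts per library and the intronic THRB-IT1 5 to 22, against 2358 to 5684 for THRB. Whether the authors' counting used the strand is not stated.

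**Figure D2:**
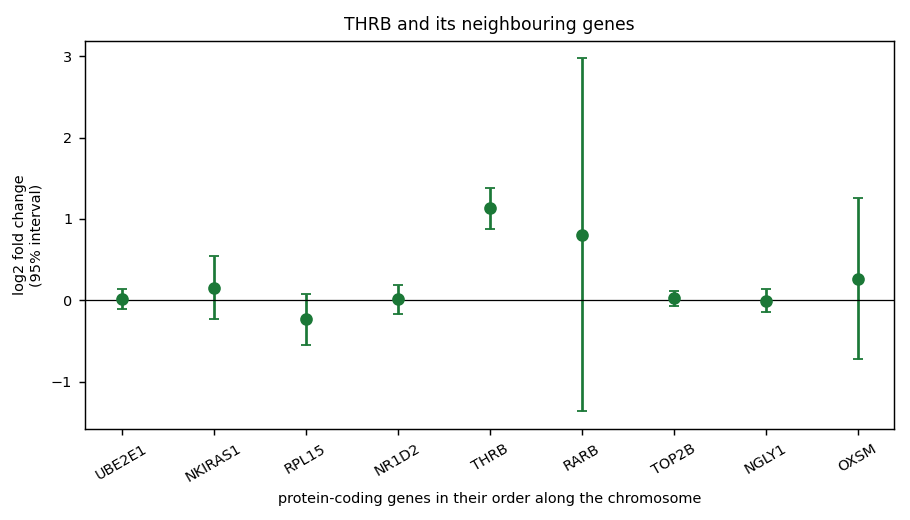
Log2 fold change of THRB and of the 4 nearest protein-coding genes on each side, in chromosomal order without distances, with 95% intervals from the edgeR fit. THRB stands at 1.13, and the intervals of all 8 neighbours include 0, those of the low or variable genes RARB and OXSM being wide.

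Expression of the family in these tubule cells ran from 0.0282 FPKM for RARB to 30.04 FPKM for NR1H2, as means of all 6 libraries. At a mean of 1 FPKM or more in either group, 24 of 34 genes were expressed, comprising 16 of 26 receptors and 8 of 8 coregulators. The same level was reached by 64.7% of the 21509 genes tested, so the share of the set was near that of all genes. All 34 genes passed the filter on low counts. The most abundant receptor was NR1H2, the widely expressed oxysterol receptor LXR-beta, with 31.8, 24.1 and 28.5 FPKM in Control and 27.2, 37.9 and 30.8 in NR3C2-OE. The orphan receptors NR2F2 (COUP-TFII), NR2F6 and NR2C1 followed, and the order of NR2F2 and NR2F6 was within their spread in Control (15.5 ± 0.61 and 14.7 ± 0.24 FPKM). Below 1 FPKM lay VDR, RXRB, NR4A1, RORA, NR4A2, NR4A3, ESRRG, NR2F1, ESR1 and RARB.

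**Figure D3:**
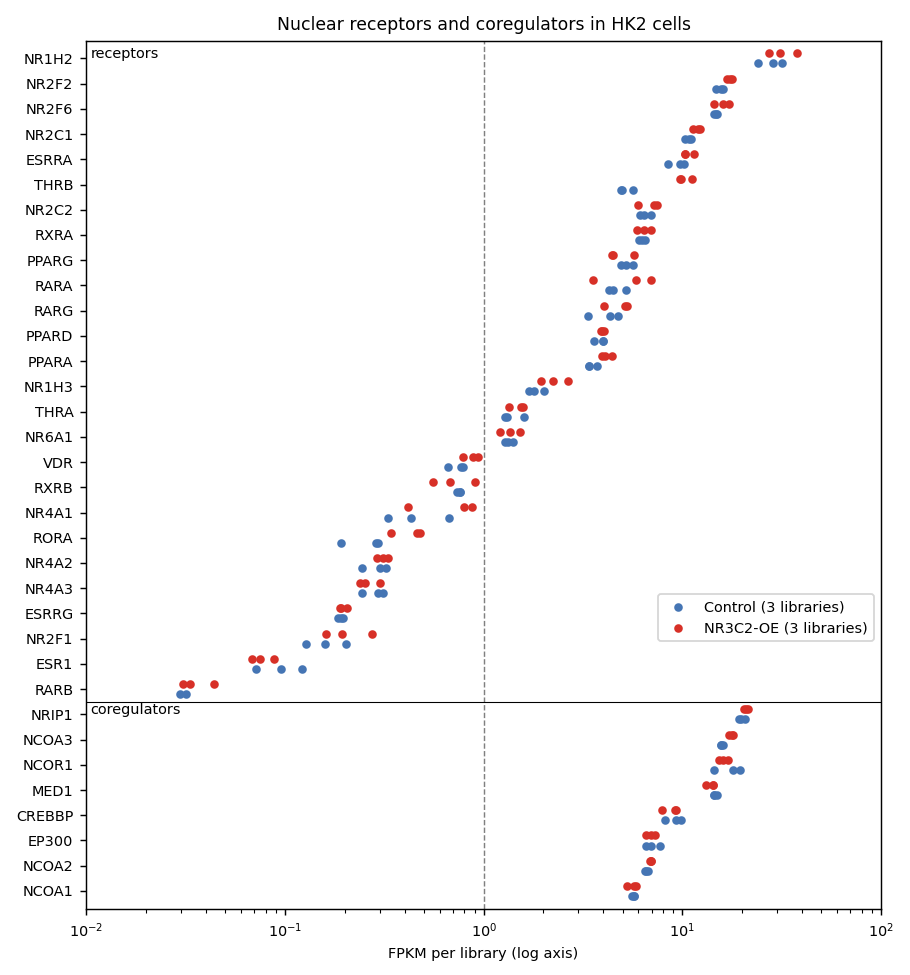
FPKM of the 34 genes in each of the 6 libraries on a log axis, receptors above and coregulators below, each ordered by mean level, with the dashed line at 1 FPKM. Coregulators lie between 5.25 and 21.5 FPKM, and 10 of 26 receptors lie left of the line. RARB had 0 in Control library 1, which a log axis cannot show.

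None of the 34 genes passed edgeR's test over all genes, where 0.0279% of the 21509 genes did. At an unadjusted p below 0.05 there were 5 (THRB, NCOA3, PPARA, RORA and NR2F2), against 9.19% of all genes, and DESeq2 called 1, against 1.99% of the 16484 genes it adjusted. All 5 were higher in NR3C2-OE, a direction and p that 4.43% of all genes had. Since the values of THRB were known when the set was drawn up, these counts are a description. Log2 fold changes were positive in 24 and negative in 10 of the 34 genes, with a median of 0.11 against 0.0007 over all genes. Receptors were positive in 21 of 26 (median 0.14) and coregulators in 3 of 8 (median -0.02), where 50.2% of all genes were positive. For 26 of the 34 genes the 95% interval excluded a change of 1.5-fold in either direction. The other 8 were THRB, whose whole interval lay beyond 1.5-fold, and RARB, RORA, NR2F1, NR4A1, NR4A2, NR1H3 and ESR1, of which NR1H3 alone reached 1 FPKM.

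**Figure D4:**
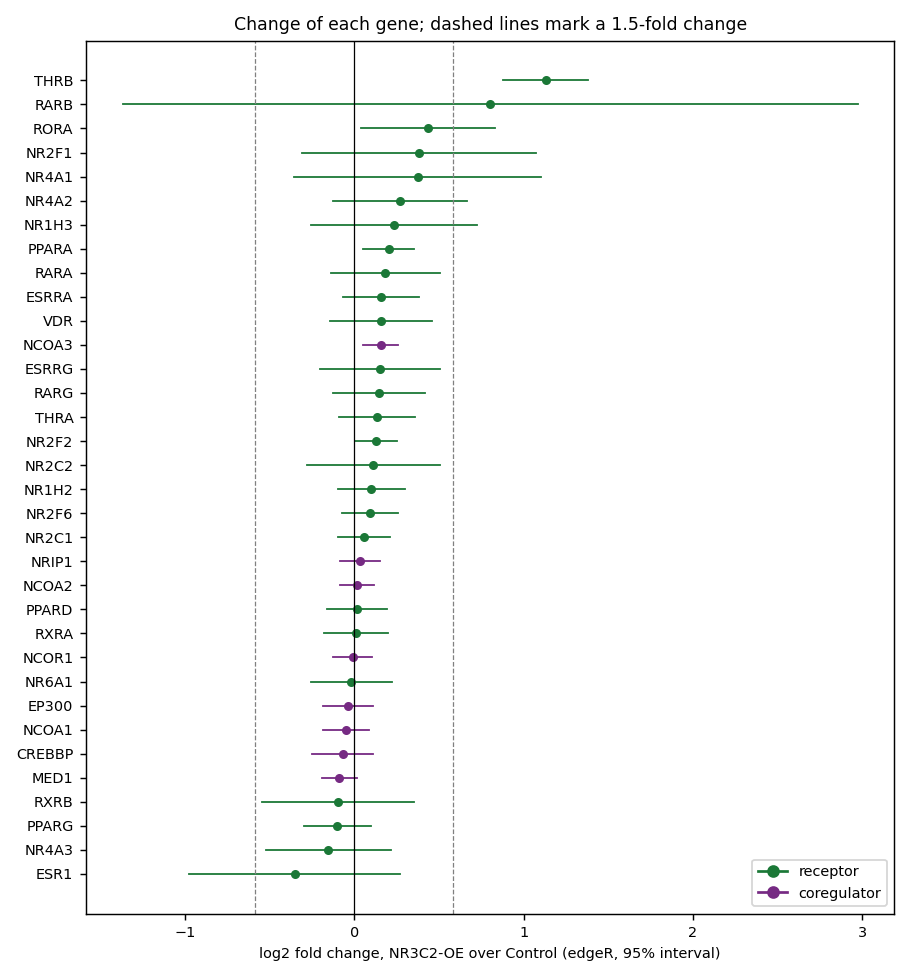
Log2 fold change of NR3C2-OE over Control for each of the 34 genes, with 95% intervals from the edgeR fit (receptors green, coregulators purple) and dashed lines at a 1.5-fold change. THRB at 1.13 is the only gene whose interval lies wholly outside the dashed lines, and the coregulator intervals all lie between folds of 0.842 and 1.196.

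The retinoic acid receptors were led by RARA and RARG, which bind all-trans retinoic acid. RARA had 4.28, 4.49 and 5.23 FPKM in Control and 6.92, 5.81 and 3.57 in NR3C2-OE, where library 3 lay below the whole Control range and the others above it. Its log2 fold change was 0.18 (95% interval -0.14 to 0.50). RARG, an epithelial form, had 4.14 ± 0.73 and 4.82 ± 0.67 FPKM (0.14, SE 0.11). RARB, itself a classic target of retinoic acid, was barely detected, with 0, 12 and 15 estimated counts in Control and 14, 10 and 12 in NR3C2-OE. A difference in RARB was not detectable at this depth.

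All 3 PPAR genes, whose products sense fatty acids, were expressed, at 3.82 (PPARA), 3.91 (PPARD) and 5.06 FPKM (PPARG) over the 6 libraries. PPARA, which drives fatty acid oxidation in tubule cells, had 3.39, 3.40 and 3.71 FPKM in Control and 3.95, 4.09 and 4.41 in NR3C2-OE. The groups did not overlap, but the step was small beside that of THRB, at a log2 fold change of 0.20 (SE 0.06, edgeR adjusted p = 0.451). PPARD differed by less than its spread (3.86 ± 0.22 and 3.96 ± 0.06 FPKM, log2 fold change 0.02). PPARG, the target of the glitazone drugs, had 5.26 ± 0.36 and 4.86 ± 0.73 FPKM, and its log2 fold change was -0.10 (95% interval -0.30 to 0.10).

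RORA, a receptor that binds DNA as a monomer and regulates clock and lipid genes, had low values that did not overlap. Its FPKM was 0.287, 0.295 and 0.191 in Control and 0.460, 0.342 and 0.479 in NR3C2-OE. The FPKM ratio of 1.66 exceeded the fold of the estimated counts, 1.35 (log2 fold change 0.44, SE 0.16, edgeR adjusted p = 0.506). RORA was the only gene of the 34 whose log2 change differed by more than 0.2 between the units. The transcript length implied by counts per FPKM was 9.09 kb in Control and 7.36 kb in NR3C2-OE, and from 5.76 to 11.5 kb over single libraries.

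The oxysterol receptors NR1H2 and NR1H3 (LXR-alpha) had log2 fold changes of 0.10 (SE 0.08) and 0.23 (SE 0.20), and NR1H3 was much the lower, at 1.83 ± 0.16 and 2.28 ± 0.35 FPKM. The vitamin D receptor gene VDR had 0.740 ± 0.066 and 0.866 ± 0.077 FPKM (log2 fold change 0.16, SE 0.12). RXRA, the common heterodimer partner, held 6.27 ± 0.22 and 6.41 ± 0.52 FPKM, and its 95% interval of the fold ran from 0.882 to 1.15. RXRB was far lower, at 0.752 ± 0.017 and 0.713 ± 0.18 FPKM.

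Among the orphan receptors, NR2F2, a regulator of mesenchymal and vascular development, had 16.0, 14.8 and 15.7 FPKM in Control and 17.7, 16.8 and 17.4 in NR3C2-OE. These did not overlap (log2 fold change 0.13, SE 0.05, edgeR adjusted p = 0.529). NR2C1, the testicular receptor TR2, had 11.1, 10.7 and 10.4 against 11.3, 12.0 and 12.3 FPKM, apart in this unit but overlapping in counts (log2 fold change 0.06, SE 0.06). Its relative NR2C2 (TR4) had 6.49 ± 0.45 and 6.90 ± 0.81 FPKM. NR2F6 had 14.7 ± 0.24 and 15.9 ± 1.38 FPKM, and NR2F1 only 0.164 ± 0.038 and 0.210 ± 0.058. NR6A1, the germ cell nuclear factor, had 1.34 ± 0.06 and 1.37 ± 0.16 FPKM.

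ESRRA, an orphan receptor that controls mitochondrial genes with PGC-1 coactivators, had 9.70, 8.47 and 10.2 FPKM in Control and 11.5, 10.3 and 10.3 in NR3C2-OE. The lowest NR3C2-OE value was barely above the highest Control value, and the counts overlapped (log2 fold change 0.16, SE 0.09, edgeR adjusted p = 0.672). ESRRG, its relative, was at 0.191 ± 0.005 and 0.195 ± 0.009 FPKM, and ESR1, the oestrogen receptor alpha, at 0.097 ± 0.026 and 0.077 ± 0.010. The immediate early receptors NR4A1, NR4A2 and NR4A3, induced by many stimuli within an hour or so, all lay below 1 FPKM. NR4A1 was the most variable of them, at 0.330, 0.672 and 0.433 FPKM in Control and 0.792, 0.876 and 0.415 in NR3C2-OE (log2 fold change 0.37, 95% interval -0.36 to 1.10). NR4A2 and NR4A3 had log2 fold changes of 0.27 (SE 0.16) and -0.15 (SE 0.15).

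Coregulators had standard errors of 0.0405 (NCOA2) to 0.0748 (CREBBP) on the log2 scale. The 95% intervals of all 8 lay between folds of 0.842 and 1.196. NCOA3, a p160 coactivator amplified in breast cancer, had 15.9, 15.7 and 15.6 FPKM in Control and 17.8, 18.0 and 17.2 in NR3C2-OE, without overlap (log2 fold change 0.15, SE 0.04, edgeR adjusted p = 0.399). NCOA2, a related p160 protein, had 6.50, 6.71 and 6.58 against 6.87, 6.95 and 6.96 FPKM, with overlapping counts and a log2 fold change of 0.02 (SE 0.04). NCOA1, the founding member of that family, had 5.66 ± 0.07 and 5.59 ± 0.31 FPKM. MED1, the Mediator subunit that contacts liganded receptors, was the only gene lower in every NR3C2-OE library in both units, at 14.4, 14.5 and 15.0 against 13.1, 14.2 and 14.2 FPKM (log2 fold change -0.09, SE 0.04, edgeR adjusted p = 0.596). NRIP1, a corepressor also known as RIP140, was the most abundant at 19.2, 20.6 and 19.7 FPKM in Control and 20.9, 21.5 and 20.4 in NR3C2-OE. NCOR1, which recruits HDAC3 to unliganded receptors, had 17.2 ± 2.57 and 16.1 ± 0.85 FPKM. The acetyltransferase genes EP300 and CREBBP had log2 fold changes of -0.04 (SE 0.06) and -0.07 (SE 0.07).

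Counted over the set, normalised counts did not overlap between the groups in 6 of 34 genes, 5 higher (THRB, NCOA3, PPARA, RORA and NR2F2) and 1 lower (MED1). Among all genes 16.7% did not overlap in counts, and 7.96% lay higher in NR3C2-OE. The 6 in either direction were near their share, while the 5 higher were above theirs. In FPKM, 8 genes were higher and 1 was lower without overlap, above the shares of all genes, 16% in either direction and 9.38% higher in NR3C2-OE. The values of THRB were known when the set was drawn up, so these counts too are a description.

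Of 14 genes listed as thyroid hormone responsive, 10 were tested. An unadjusted edgeR p below 0.05 was reached by 0 of the 10, near the 9.19% of all genes. DESeq2 called 0 of them, against 1.99% of all genes. Their median log2 fold change was 0.02. The sarcoplasmic reticulum calcium pump ATP2A2 stood at -0.11 (SE 0.06), CPT1A, which admits fatty acids to mitochondria, at -0.15 (SE 0.09), and malic enzyme ME1 at -0.06 (SE 0.05). The hormone-activating enzyme genes DIO1 and DIO2 were low, at 0.150 ± 0.077 and 0.147 ± 0.009 FPKM in Control. Of 22 genes listed for hormone and retinoid handling, 18 were tested and 0 passed edgeR's test over all genes, near the 0.0279% of all genes that did. At an unadjusted p below 0.05 stood 4, all higher, against 9.19% of all genes in either direction (4.43% higher). Among the 4 were ALDH1A3, which makes retinoic acid (0.15, SE 0.05), and the retinol dehydrogenase DHRS9 (0.43, SE 0.17), and DESeq2 called 0 of the list.

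In the lists of genes that respond to the other receptors, 0 genes passed edgeR's test over all genes, near the 0.0279% of all genes that did. At an unadjusted p below 0.05 stood 9.19% of all genes, 4.43% higher and 4.76% lower in NR3C2-OE, and DESeq2 called 1.99%. Of 20 tested PPAR-responsive genes, 2 had such a p, both higher, near the 9.19% of all genes in either direction. PLIN2, which coats lipid droplets, had 35.2 ± 1.63 and 46.3 ± 3.31 FPKM (log2 fold change 0.36, SE 0.07, edgeR adjusted p = 0.265), and DESeq2 called it. ACSL3, an acyl-CoA synthetase of lipid droplets, had 22.0 ± 2.17 and 26.7 ± 1.76 FPKM (0.25, SE 0.07). Of 11 tested LXR-responsive genes, 2 had an unadjusted p below 0.05, both higher, against 9.19% of all genes in either direction (4.43% higher). ABCA1, the cholesterol exporter, had 15.0 ± 0.63 and 18.1 ± 0.50 FPKM (log2 fold change 0.26, SE 0.04, edgeR adjusted p = 0.252), and DESeq2 called it. MYLIP, a ligase that degrades the LDL receptor, stood at 0.27 (SE 0.08). Apolipoprotein E, another gene of the list, had the opposite sign (-0.23, SE 0.11).

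For retinoic acid, 3 of 15 tested genes had an unadjusted p below 0.05, all higher, against 9.19% of all genes in either direction (4.43% higher). These were ELF3, an epithelial transcription factor, at 0.19 (SE 0.06), RARRES2, which encodes chemerin, at 0.28 (SE 0.10) and the retinal reductase DHRS3 at 0.56 (SE 0.23). DESeq2 called 0. For vitamin D, 0 of 10 tested genes reached that p, and DESeq2 called 0. The klotho gene KL had 10.8 ± 0.26 and 10.2 ± 0.31 FPKM (-0.11, SE 0.05). In the oestrogen and oestrogen-related receptor list, 3 of 16 tested genes had an unadjusted p below 0.05, all lower. The share of all genes was 9.19% in either direction and 4.76% lower. They were the cell cycle gene CCND1 (-0.23, SE 0.06) and the mitochondrial genes CYCS (-0.27, SE 0.07) and ATP5F1B (-0.24, SE 0.07), and DESeq2 called 0. Of 10 genes listed as linked to NR4A induction, 1 had an unadjusted p below 0.05, near the 9.19% of all genes. It was DUSP1, at 58.6 ± 3.33 and 43.7 ± 1.21 FPKM (-0.44, SE 0.05, edgeR adjusted p = 0.138), and DESeq2 called it.

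Further coregulators outside the 8 were also expressed. All 32 further coregulator genes reached 1 FPKM, and 14 had positive and 18 negative log2 fold changes (median -0.0066). In edgeR's test over all genes 0 passed, near the 0.0279% of all genes, and DESeq2 called 0, against 1.99%. At an unadjusted p below 0.05 stood 5 (3 higher and 2 lower, against 9.19% of all genes). NCOA4, which also delivers ferritin to autophagy, had 104 ± 4.79 and 117 ± 1.09 FPKM (0.19, SE 0.04), and the chromatin reader BRD8 36.3 ± 2.16 and 32.9 ± 2.03 (-0.18, SE 0.05). Of 21 receptor genes outside the set, 10 were tested and 5 reached 1 FPKM (NR1D2, NR3C1, NR3C2, NR1H4 and HNF4G). NR3C2, the plasmid's gene, had 5.80 ± 0.57 and 8.83 ± 2.86 FPKM without overlap (0.68, SE 0.23, edgeR adjusted p = 0.486). NR3C2-OE library 1 had its highest level, 12.1 FPKM. Whether THRB followed NR3C2 between libraries was not tested. NR1H4, the bile acid receptor FXR, had 3.41 ± 0.16 and 4.21 ± 0.81 FPKM (0.33, SE 0.12).

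Library totals of the estimated counts were 77737375 to 132533971, and the libraries of a group correlated across genes no better (Pearson 0.978 to 0.982) than those of different groups (0.978 to 0.981). Of 25 genes listed for proximal tubule cells 17 were tested and 12 reached 1 FPKM, a level that 64.7% of all genes tested reached. The highest were VIM, KRT8, HAVCR1 and PAX8, which are not all particular to that segment. The genes of the apical proteins of the mature segment CUBN, AQP1 and SLC34A1 had mean Control levels of 0.0137, 0.0395 and 0.119 FPKM. They were picked after their values were seen, and other apical genes of the list, such as LRP2 and ANPEP, are not described here. Of 19 distal nephron markers 0 reached 1 FPKM, and their summed level was 1.94 to 2.15 in Control and 1.80 to 1.91 in NR3C2-OE. Of 19 fibroblast, endothelial and podocyte markers 4 reached 1 FPKM, with sums of 23.8 to 27.2 and 25.4 to 28.6. Of 7 tested, 1 was higher and 1 lower at an unadjusted p below 0.05, against 9.19% of all genes in either direction. The summed blood cell markers were at 22.2 to 22.7 and 25.7 to 32.2 FPKM, nearly all from the lysosomal gene CD68 (20.9 ± 0.15 and 27.1 ± 3.37). CD68 had an unadjusted edgeR p of 0.0048 (adjusted p = 0.338) and a DESeq2 adjusted p of 0.0387. All 7 tested blood cell markers had positive log2 fold changes, against 50.2% of all genes, but only 1 of them reached 1 FPKM. Their part in the differences above was not tested.

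**Figure D5:**
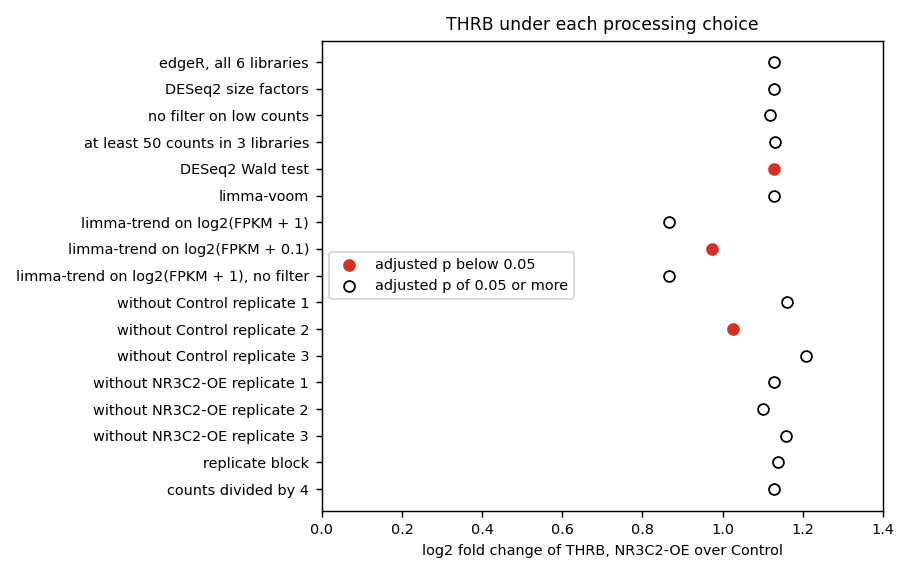
Log2 fold change of THRB (x axis, from 0) under the edgeR fit of all 6 libraries and 16 other processing choices, filled red where the adjusted p was below 0.05. The values lie between 0.87 and 1.21, and 3 of the 16 choices called the gene.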

How the data were processed

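RNA-seq values of 6 HK2 libraries were used. The submitters' processing notes name cutadapt 1.2.1, a read trimmer, with aligner, counter and genome build not given in the sources used here. The authors deposited, per gene and library, an FPKM value and an estimated count given as a whole number. Low estimated counts favoured multiples of 4 (8694 values of 4 against 5772 of 3 and 5504 of 5), and the cause was not tested. Symbols came from a table that matched all 36466 Ensembl identifiers, and 736 genes with assembly names stayed in totals and tests.

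The counts, already whole, were filtered with filterByExpr, scaled with TMM and tested with edgeR 4.0.16 (quasi-likelihood, group only, R 4.3.3, two-sided, Benjamini-Hochberg threshold 0.05), after a test on simulated data. The 95% intervals use its total degrees of freedom. DESeq2 1.42.0 and limma 3.58.1 served as alternatives, with each library left out in turn, other filters, pseudocounts of 1 and 0.1 on FPKM, and counts divided by 4. Per-library values are given for genes with an unadjusted p below 0.05, non-overlapping groups or the highest levels, and for THRA and THRB, and up to 3 genes of smallest p per list are named, apart from 1 gene that is not reported here. A few others (RARA, RARB, NR4A1, DIO1, DIO2, CUBN, AQP1, SLC34A1 and the neighbours of THRB) were chosen after their values were seen. The members and lists were chosen with earlier results of these data known.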

Additional observations from a re-analysis of the deposited data

How the results depend on the processing

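THRB kept its direction in all 16 alternatives, with a log2 fold change of 0.87 to 1.21. It was called with DESeq2 (1.13), on log2(FPKM + 0.1) (0.97, limma adjusted p = 0.0492) and without Control library 2 (1.03, edgeR adjusted p = 0.0322), and the adjusted p over the other alternatives ran from 0.0511 (limma-voom) to 0.681 (replicate block). Leaving out each library gave log2 fold changes of 1.03 to 1.21 for THRB. No other member was called in any alternative, so the count of members called was 0, or 1 with DESeq2, on log2(FPKM + 0.1) and without Control library 2 (0 to 1 over the libraries left out). Members with an unadjusted p below 0.05 numbered 3 to 6 when a library was left out (3 without Control library 1 or 2 or NR3C2-OE library 2) and 3 with the replicate block. The share of all genes at that p in these settings is not given here, so these numbers cannot be read against a background. Over all genes, 328 were called by DESeq2, 11 on log2(FPKM + 0.1), 0 on log2(FPKM + 1) without a filter, 0 with the replicate block and 5 to 18 with a library left out (13 for Control library 2, and 14, 18 and 16 for NR3C2-OE libraries 1, 2 and 3). Deviations from the group means correlated at 0.0038 to 0.0266 between same-numbered libraries, and at -0.0371 to 0.0232 between differently numbered ones. Whether the replicate number pairs libraries is not stated. These correlations cannot decide it, being taken over all genes with 3 libraries a group. Of the 34 members, 27 kept their sign throughout. The others changed sign near 0, and the cause was not tested. NR6A1 moved to 0.016 on log2(FPKM + 1), with or without a filter, and to 0.024 on log2(FPKM + 0.1), and RXRA to -0.0038 without a filter on counts. With each library left out in turn, the log2 fold change ran from -0.037 to 0.045 for PPARD, from -0.064 to 0.068 for RXRA, from -0.30 to 0.047 for RXRB, from -0.016 to 0.28 for NR2C2, from -0.083 to 0.059 for NR6A1, from -0.041 to 0.020 for NCOR1 and from -0.079 to 0.018 for EP300. Depth limits RARB, at 15 counts or fewer per library.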

Other observations

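RXRB shares its locus with SLC39A7, a zinc transporter gene on the opposite strand. Estimated counts of SLC39A7, not scaled to library size, were 1915, 1945 and 1913 in Control, against 140, 1607 and 1623 in NR3C2-OE. NR3C2-OE library 1 stood far below the rest, and Control library 3 had the largest total, 132533971. The counts of RXRB were 242, 248 and 337 in Control and 154, 183 and 281 in NR3C2-OE, again lowest in NR3C2-OE library 1. Scaled to library size they were 2.63, 2.66 and 2.56 CPM in Control and 1.94, 2.32 and 3.08 in NR3C2-OE. Without that library the log2 fold change of RXRB was 0.05 instead of -0.10. Whether reads were shared between the overlapping genes was not tested. Both genes were looked at after their values were seen.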
